A study of Homo sapiens with 38 samples.

Results

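The genes described are 10 enzymes of serine, one-carbon, asparagine and proline synthesis: PHGDH, PSAT1, PSPH, SHMT1, SHMT2, MTHFD2, MTHFD1L, ALDH1L2, ASNS and PYCR1. They were chosen by name, with earlier results of these data known. All 10 were found among the 50652 gene symbols listed for BE2C cells and the 50778 listed for the other lines. RNA-seq read counts were available from human neuroblastoma lines, all described as established lines grown in culture with fetal bovine serum. The label on extraction names xenograft tissue instead, which was not resolved. BE2C cells, which carry MYCN amplification, were kept in RPMI and received GSK-J4, an inhibitor of the KDM6 histone demethylases, at 2.5 μM for 0, 24 or 48 h, with 2 libraries per time and no vehicle control at 24 or 48 h. BE2C cells were also transfected for 72 h with a control siRNA (siCtrl, 2 libraries) or with an siRNA against KDM6B (N1, N2 or N33, 1 library each). CHLA15 and CHLA20 cells received palbociclib, an inhibitor of the kinases CDK4 and CDK6, at 300 nM for 72 h. NB1643 and NB1691 cells received it at 3 μM for 72 h. Each of these lines had 2 treated and 2 control libraries, with no time or vehicle recorded for the controls. For these lines the labels name DMEM with added glutamine, while the methods of the study name RPMI for CHLA15, CHLA20 and NB1691. The study describes 2 of its palbociclib lines as MYCN-amplified and 2 as not, without naming them there. The labels do not say that the libraries of a group came from separate cultures, so the p-values measure only the spread between these libraries, which may be technical.

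Serine is made from the glycolytic intermediate 3-phosphoglycerate in successive steps carried out by PHGDH, PSAT1 and PSPH. Serine hydroxymethyltransferase then moves a carbon from serine to tetrahydrofolate, in mitochondria through SHMT2 and in the cytosol through SHMT1. MTHFD2, MTHFD1L and ALDH1L2 process that carbon in mitochondria, and the formate released there feeds purine and thymidylate synthesis. ASNS makes asparagine from aspartate and glutamine, and PYCR1 completes proline synthesis in mitochondria. Several of these genes are known targets of ATF4, a transcription factor of the amino acid and integrated stress responses that binds C/EBP-ATF response elements, such as the one in the ASNS promoter.

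The promoters of ASNS, MTHFD1L and PSAT1 are printed because these genes shared or lacked that element. They also differed in how they changed over the hours in GSK-J4. The genes were picked with these changes known, and a link between motif and change was not tested. RefSeq promoter windows on GRCh38.p14 were found for 6 of the 10 genes, with none for PSPH, SHMT2, ALDH1L2 and PYCR1. In the 250 bases before each start, 5 motifs were searched on both strands, and capitals mark every match: the C/EBP-ATF response element TGATGNAA, the nutrient-sensing element NSRE-2 GTTACA, the E-box CACGTG, an E2F site TTTNNCGC and the CCAAT box. No 2 of these matches overlapped. ASNS has 2 windows and MTHFD1L has 4, from different starts, and the other genes have 1. The first window of ASNS was chr7:97872409-97872658 on the minus strand, that of MTHFD1L was chr6:150866236-150866485 on the plus strand, and that of PSAT1 was chr9:78296875-78297124 on the plus strand.
ASNS: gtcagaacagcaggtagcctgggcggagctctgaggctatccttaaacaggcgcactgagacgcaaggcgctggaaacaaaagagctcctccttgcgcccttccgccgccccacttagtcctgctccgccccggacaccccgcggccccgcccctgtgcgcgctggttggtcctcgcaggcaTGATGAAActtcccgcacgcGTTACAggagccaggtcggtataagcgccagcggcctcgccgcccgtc
MTHFD1L: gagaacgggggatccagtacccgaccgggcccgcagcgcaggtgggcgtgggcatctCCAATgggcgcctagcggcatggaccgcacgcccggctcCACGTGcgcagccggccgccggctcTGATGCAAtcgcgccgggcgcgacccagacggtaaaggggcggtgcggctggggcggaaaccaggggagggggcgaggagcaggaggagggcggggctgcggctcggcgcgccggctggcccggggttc
PSAT1: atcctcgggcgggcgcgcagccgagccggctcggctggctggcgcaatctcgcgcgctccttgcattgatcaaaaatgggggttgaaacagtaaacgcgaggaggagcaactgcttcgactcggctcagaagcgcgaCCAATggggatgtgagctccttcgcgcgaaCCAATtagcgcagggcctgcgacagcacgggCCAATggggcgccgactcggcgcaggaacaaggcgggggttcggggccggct

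The ASNS window held the C/EBP-ATF element beginning 68 bases before the start and NSRE-2 beginning 48 bases before it. The MTHFD1L window held the same kind of element 129 bases before the start, beside an E-box at 154 and a CCAAT box at 193. Another MTHFD1L window, which overlaps the first, held the same element, whereas the other two MTHFD1L windows and the other ASNS window did not. The PSAT1 window held CCAAT boxes at 113, 83 and 52 bases before the start and none of the other motifs. PHGDH, SHMT1 and MTHFD2 held only CCAAT boxes. Of 35116 promoter windows of the same length, 3.14% held TGATGNAA, 5.59% GTTACA, 6.34% CACGTG, 5.92% TTTNNCGC and 32% CCAAT. These matches describe letters in a window; binding was not measured in the files used here.

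Libraries held 36186567 to 93011010 counts on genes, and the 10 genes had between 388 and 48251 counts in a library, so none was near the floor of 3 counts, which is at most 0.0829 CPM. CPM, the depth-scaled unit used throughout, is the count of a gene relative to the TMM-normalized library size. Each BE2C library was deposited as 2 samples. The 2 differed by a chi-square per degree of freedom of 1.48 to 1.65 in the GSK-J4 experiment and 1.5 to 1.62 in the siRNA experiment, below the 1.89 to 3.01 and 3.91 to 171 between libraries of 1 group there, so they were summed and counted as 1. Differences were tested with edgeR's quasi-likelihood test, adjusted by Benjamini-Hochberg over all genes tested, with a threshold of 0.05. Nothing in these bulk libraries separates fewer cells from less RNA per cell. All 10 adrenergic neuroblastoma markers were above 1 CPM in every library of 4 lines, and 9 of 10 in NB1691. Their summed level was 675 to 1171 CPM in NB1691, 3289 to 3581 CPM in CHLA15, 3014 to 3406 CPM in CHLA20 and 3554 to 5667 CPM in NB1643. In BE2C it was 3318 to 4160 CPM in the GSK-J4 experiment and 1018 to 3554 CPM in the siRNA experiment. Of 11 markers of other cell types, of which 10 are listed for BE2C, summed levels were 2.94 to 8.76 CPM in BE2C and 6.24 to 7.76 CPM in NB1643, 69 to 152 CPM in CHLA15 and CHLA20, and 14978 to 20397 CPM in NB1691, where COL1A1, a fibrillar collagen, stood at 14633 to 19791 CPM. In NB1691 KRT18 stood at 297 to 567 CPM. SOX10 was at or under the floor in every library. The part of this difference between lines in the results was not tested. Libraries of 1 group differed by a chi-square per degree of freedom of 2.22 to 7.14 in 6 of the 8 groups of the palbociclib experiment, but by 19.2 between the 2 CHLA20 controls and 24.3 between the 2 NB1643 controls, and the first CHLA20 control differed from the CHLA15 controls by 18.6 and 20.9, about as much as from its partner.

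In BE2C cells at 24 h of GSK-J4, 8 of the 10 genes rose, 7 of them by 1.86-fold to 4.37-fold, and none fell. Without a vehicle control at 24 or 48 h, the drug and the hours in culture cannot be told apart in these changes. Across the 17734 genes tested, 27.3% rose and 28% fell at 24 h, and the median log2 fold change was 0.014, against 1.29 for the 10 genes. ASNS, which makes asparagine, was at 127 and 128 CPM at 0 h, at 557 and 566 CPM at 24 h and at 424 and 432 CPM at 48 h. The groups of libraries for ASNS were far apart, with the highest values at 24 h. Its log2 fold change at 24 h was 2.13 (SE 0.03, adjusted p = 1.7e-43 by edgeR).

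The genes of serine synthesis rose together at 24 h. PHGDH, the first enzyme of the pathway, was at 362 and 369 CPM at 0 h and at 674 and 696 CPM at 24 h, a log2 fold change of 0.90 (SE 0.028, edgeR adjusted p = 3.5e-30). PSAT1, the aminotransferase of the middle step, went from 148 and 145 CPM to 376 and 367 CPM, a log2 fold change of 1.34 (SE 0.031, edgeR adjusted p = 3.8e-35). PSPH, the phosphatase that releases serine, went from 39.7 and 41.9 CPM to 105 CPM in both libraries, a log2 fold change of 1.35 (SE 0.04, edgeR adjusted p = 1e-30). In each of these genes both 24 h libraries lay above both 0 h libraries, and the share of all genes so separated is not given here.

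The one-carbon genes divided by member. SHMT2, the mitochondrial hydroxymethyltransferase, was at 198 and 203 CPM at 0 h and at 493 and 482 CPM at 24 h, a log2 fold change of 1.28 (SE 0.029, edgeR adjusted p = 2.7e-35). MTHFD2, the mitochondrial dehydrogenase and cyclohydrolase, went from 318 and 302 CPM to 800 and 812 CPM, a log2 fold change of 1.37 (SE 0.029, edgeR adjusted p = 6.1e-37). ALDH1L2, the mitochondrial formyltetrahydrofolate dehydrogenase, went from 36.2 and 41 CPM to 93.6 and 98.7 CPM, a log2 fold change of 1.31 (SE 0.044, edgeR adjusted p = 1.1e-28). All 3 had non-overlapping groups, again without the share of all genes.

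MTHFD1L, the mitochondrial formyltetrahydrofolate synthetase, rose far less. It was at 89.8 and 91.7 CPM at 0 h and at 97.5 and 99.3 CPM at 24 h, a log2 fold change of 0.11 (SE 0.035, edgeR adjusted p = 0.0065), and that call was lost with DESeq2 (adjusted p = 0.06) and without the first 0 h library. SHMT1, the cytosolic counterpart of SHMT2, was at 19.9 and 23.5 CPM at 0 h and at 23.3 and 22.2 CPM at 24 h, with overlapping groups and a log2 fold change of 0.061 (SE 0.066, edgeR adjusted p = 0.45). Its call also depended on 1 library, since without the second 0 h library its log2 fold change was 0.19 and passed the test, and without the first it was -0.051. PYCR1, the proline enzyme, was at 149 and 148 CPM at 0 h and at 143 and 149 CPM at 24 h, a log2 fold change of -0.027 (SE 0.032, edgeR adjusted p = 0.50) that became 0.02 under upper-quartile scaling.

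**Figure D1:**
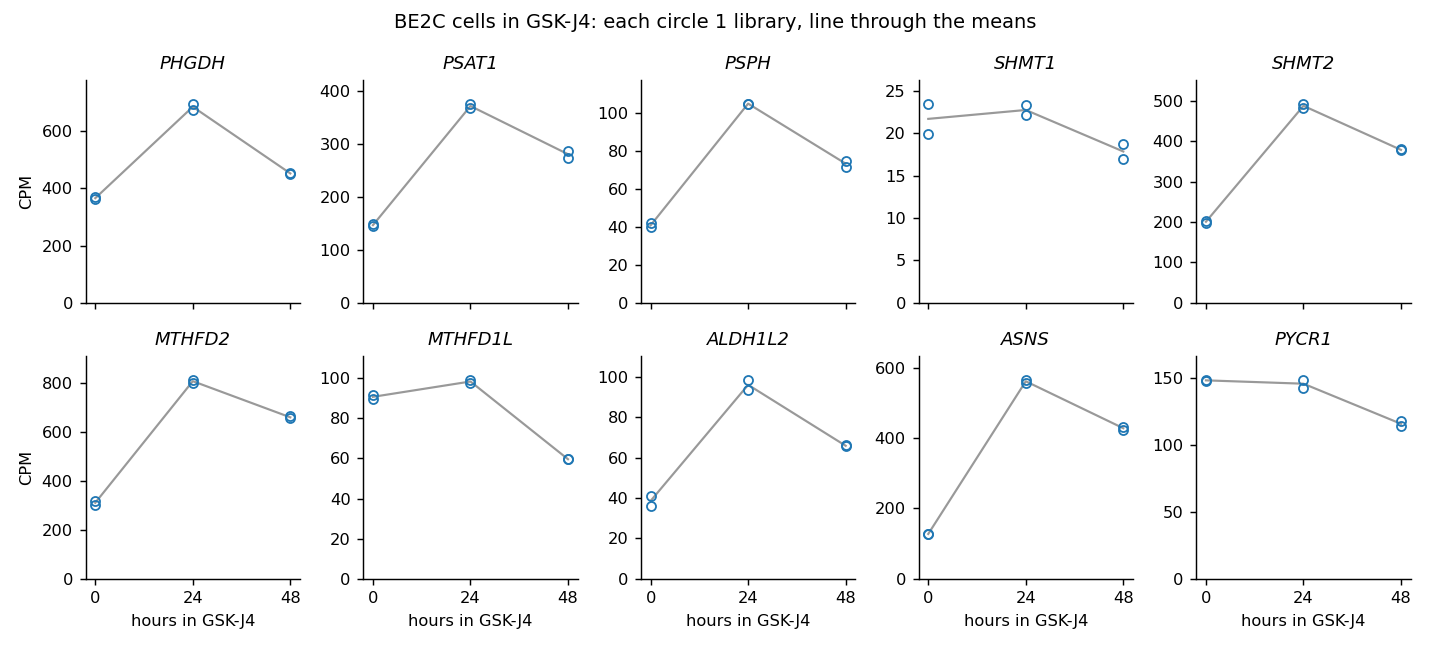
Levels of the 10 genes in BE2C cells, in CPM (linear axis from 0), against hours in GSK-J4; each circle is 1 library and the line joins the means of 2 libraries. PHGDH, PSAT1, PSPH, SHMT2, MTHFD2, ALDH1L2 and ASNS peaked at 24 h and were still above 0 h at 48 h, whereas SHMT1, MTHFD1L and PYCR1 were lowest at 48 h.

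At 48 h the same 7 genes were still above 0 h and the remaining 3 had fallen. The 48 h changes covered 37.1% of genes rising and 34.4% falling, with a median log2 fold change of 0.83 for the 10 genes and 0.055 for all genes. ASNS remained the gene with the largest change, at a log2 fold change of 1.76 (SE 0.03, edgeR adjusted p = 4.5e-41). MTHFD2 followed at 1.10, then PSAT1 at 0.96, SHMT2 at 0.93, PSPH at 0.86, ALDH1L2 at 0.79 and PHGDH at 0.32. MTHFD1L was at 59.7 and 59.6 CPM, a log2 fold change of -0.59 (SE 0.036, edgeR adjusted p = 2.7e-19). PYCR1 was at 118 and 114 CPM, a log2 fold change of -0.34 (SE 0.032, edgeR adjusted p = 6.3e-13). SHMT1 was at 18.7 and 17 CPM, a log2 fold change of -0.26 (SE 0.066, edgeR adjusted p = 0.0006), a call that was lost without the second 0 h library. Under upper-quartile scaling the median of all genes at 48 h moved from 0.055 to 0.16, and all 3 falls kept their direction. The adrenergic neuroblastoma markers moved over the same hours, with 4 of 10 rising and 6 falling at 24 h and 1 rising and 9 falling at 48 h, and their part in these values was not tested.

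From 24 to 48 h all 10 genes fell, against 28% of all genes, while 25.9% rose. In each of the 10 both 48 h libraries lay below both 24 h libraries. How many of all genes were so separated is not given here. Of all genes called from 24 to 48 h 48.1% were higher, or 58.1% under upper-quartile scaling. The log2 fold changes of the 10 genes ran from -0.27 for MTHFD2 (SE 0.027) to -0.70 for MTHFD1L (SE 0.035), with edgeR adjusted p of 1.1e-11 and 6.9e-22. PHGDH was at 453 and 451 CPM at 48 h, a log2 fold change of -0.58 from 24 h (SE 0.027, edgeR adjusted p = 6.6e-23). Of the 16 genes of ATF4 and its known associates, 10 fell and 4 rose over the same hours, among them TRIB3 with a log2 fold change of -0.99 and ATF5 with one of -0.93. ATF4 RNA itself was at 759 and 768 CPM at 24 h and at 805 and 832 CPM at 48 h, which is 0.12 higher on the log2 scale (edgeR adjusted p = 0.00017).

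The uneven response of related enzymes showed in their ratios of counts, which compare 1 gene with another only as a change over time and not as a level. The ratio of SHMT2 to SHMT1 was 8.65 to 9.92 at 0 h, 21.1 to 21.8 at 24 h and 20.1 to 22.4 at 48 h. The ratio of MTHFD2 to MTHFD1L was 3.29 to 3.54 at 0 h, 8.17 to 8.2 at 24 h and 11 to 11.1 at 48 h. The summed level of the 10 genes was 1487 to 1494 CPM at 0 h, 3362 to 3397 CPM at 24 h and 2524 to 2537 CPM at 48 h.

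Levels were compared between genes per length of the Ensembl canonical transcript, as CPM per kilobase. In BE2C cells at 0 h PHGDH was the most abundant at 196 CPM per kilobase, followed by SHMT2 at 93, MTHFD2 at 70.4, PSAT1 at 66.3, PYCR1 at 65.3 and ASNS at 53.6. MTHFD1L was at 26.3, PSPH at 20.7, SHMT1 at 8.59 and ALDH1L2 at 5.2 CPM per kilobase. At 24 h ASNS was second at 235 CPM per kilobase, below PHGDH at 367 and beside SHMT2 at 226.

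Other genes of the same chemistry were read from fixed lists. Among 19 other folate and one-carbon genes, 1 rose and 7 fell at 24 h, with a median log2 fold change of -0.043, and 2 rose and 12 fell at 48 h, with a median of -0.28. SFXN3, a sideroflexin of the family that carries serine into mitochondria, was the one that rose, by 1.38 on the log2 scale (SE 0.077, edgeR adjusted p = 2.3e-20). The cytosolic trifunctional enzyme MTHFD1 fell by 0.44 and the folate carrier SLC19A1 fell by 0.55. Of 8 purine synthesis genes tested, 7 fell and 0 rose at 24 h and all 8 fell at 48 h, among them PFAS, which fell by 1.37 (SE 0.032, edgeR adjusted p = 2.4e-35). Of 14 genes of proline, aspartate and glutamate metabolism, 6 rose and 6 fell at 24 h and 4 rose and 8 fell at 48 h. GPT2, a mitochondrial alanine aminotransferase, rose at 24 h by 1.92 (SE 0.035), and ALDH18A1, the enzyme that precedes PYCR1 in proline synthesis, fell by 0.54 (SE 0.032). Of 9 genes tested that use serine or asparagine, 5 rose and 2 fell at 24 h and 5 rose and 3 fell at 48 h. Of 6 in methionine metabolism and transsulfuration, 2 rose and 3 fell at 24 h and 0 rose and 5 fell at 48 h. None of the 3 glycine cleavage genes tested passed the test at 24 h, and 1, DLD, fell at 48 h.

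ATF4 and its known associates had the highest median of the lists. The lists were chosen with earlier results of these data known, so this ranking is no independent evidence. At 24 h 14 of 16 rose and 0 fell, with a median log2 fold change of 1.94 against 0.014 for all genes, and the median was also 1.94 with NUPR1 at its lower bound. At 48 h 14 rose and 1 fell, with a median of 1.72. ATF4 itself was at 521 and 546 CPM at 0 h and at 759 and 768 CPM at 24 h, a log2 fold change of 0.51 (SE 0.028, edgeR adjusted p = 1.4e-20). ATF5, a related transcription factor, had a log2 fold change of 3.98 (SE 0.07), and TRIB3, a pseudokinase that is itself an ATF4 target, one of 3.74 (SE 0.057). NUPR1, a stress-induced chromatin protein, had 0 counts in both 0 h libraries and 1.67 to 2.69 CPM at 24 h, at least 26.3-fold higher with the floor taken per library.

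In the siRNA experiment, the siCtrl libraries gave 6.52 and 8.9 CPM for KDM6B RNA. The N1, N2 and N33 libraries gave 8.82, 7.13 and 8.16 CPM. A fall of the targeted RNA was thus not detected at these low levels, and the libraries are called by their labels. The study reports KDM6B depletion by siRNA in BE2C cells with western blots, and protein was not measured in these libraries. None of the 10 genes passed the test. Neither did any of the 17472 genes tested (0%; smallest edgeR adjusted p = 0.28, with 1615 genes at an unadjusted p under 0.05), while DESeq2 called 157 genes and limma-voom 0. With each deposited sample counted as a replicate, 2354 genes passed, SHMT2 (edgeR adjusted p = 0.004) and SHMT1 (edgeR adjusted p = 0.05 after rounding) among them, but samples of 1 siRNA are then taken as separate. The common biological coefficient of variation was 0.35, against 0.0219 in the GSK-J4 libraries.

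The 3 siRNA libraries did not move together. With N1 all 10 genes lay below both siCtrl libraries, and so did all 10 with N2. With N33 there were 7 genes above both siCtrl libraries and 3 below them. Of all genes tested, 47.5% lay below both siCtrl libraries with N1, 45% with N2 and 47.4% with N33, and 41.6%, 43% and 43.9% lay above them. Each siRNA had 1 library, and the siRNAs were not tested singly.

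ASNS was the clearest case. The siCtrl libraries held 127 and 125 CPM of its RNA, the N1 library 60.1 CPM, the N2 library 61.6 CPM and the N33 library 246 CPM, or -1.06, -1.03 and 0.97 on the log2 scale against the siCtrl mean. Its fold change over the group was thus close to 0 (log2 -0.004, SE 0.64, edgeR adjusted p = 1), and without N33 it was -1.02. PHGDH, at 289 and 320 CPM in the controls, stood at 157, 199 and 404 CPM in the N1, N2 and N33 libraries (log2 fold change -0.23, SE 0.41, edgeR adjusted p = 0.89).

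PSAT1 and MTHFD2 stood apart in the N2 library. PSAT1, at 144 and 156 CPM in the controls, stood at 125, 48.1 and 177 CPM in the same order of siRNAs. MTHFD2 had control values of 350 and 339 CPM and siRNA values of 311, 119 and 436 CPM. Both were thus lowest with N2 and highest with N33.

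SHMT2, SHMT1 and PYCR1 were the genes with all 3 siRNA libraries below both siCtrl libraries. How many of all genes tested lay so with all 3 siRNAs is not given here. SHMT2 had control values of 220 and 218 CPM and values of 136, 87.6 and 86.8 CPM for N1, N2 and N33, a log2 fold change of -1.05 (SE 0.27, edgeR adjusted p = 0.52). SHMT1 went from 17.5 and 15.4 CPM in the controls to 12.7, 12.7 and 12.4 CPM (log2 -0.35, SE 0.24, edgeR adjusted p = 0.68). PYCR1 had control values of 115 and 116 CPM and siRNA values of 92.3, 86.9 and 114 CPM, the N33 value being barely below the controls. The other 3 genes, PSPH, MTHFD1L and ALDH1L2, had log2 values from -0.64 to 0.40 against the siCtrl mean.

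Other measures differed between the siRNA libraries. Of 15 genes tested of the ATF4 list, 0 rose and 0 fell by the edgeR test of the 3 siRNAs as a group. Their median log2 fold change was -0.11, against 0.044 for all genes. The values of CHAC1, DDIT3 and TRIB3 below were chosen after they were seen. MYCN stood at 1610 and 1639 CPM in the controls, 1710 and 1740 CPM in the N1 and N2 libraries and 460 CPM in the N33 library. ATF4 had control values of 565 and 545 CPM and siRNA values of 469, 321 and 720 CPM. CHAC1, a glutathione-degrading enzyme and ATF4 target, had control values of 6.82 and 7.13 CPM and siRNA values of 6.13, 4.47 and 36.7 CPM. Other genes of that list differed from this order: DDIT3, a stress-induced transcription factor, stood at 24.5 to 27.7 CPM in the controls and at 19.6, 21.4 and 10.9 CPM with the siRNAs, and TRIB3 at 9.25 to 9.91 CPM in the controls and at 13.8, 3.52 and 19.6 CPM. Reads on no gene made up 16.8% and 16.1% with N1 and N2, against 13% with N33 and 12.5% and 12.7% in siCtrl. The part of these in the values of the 10 genes was not tested.

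**Figure D2:**
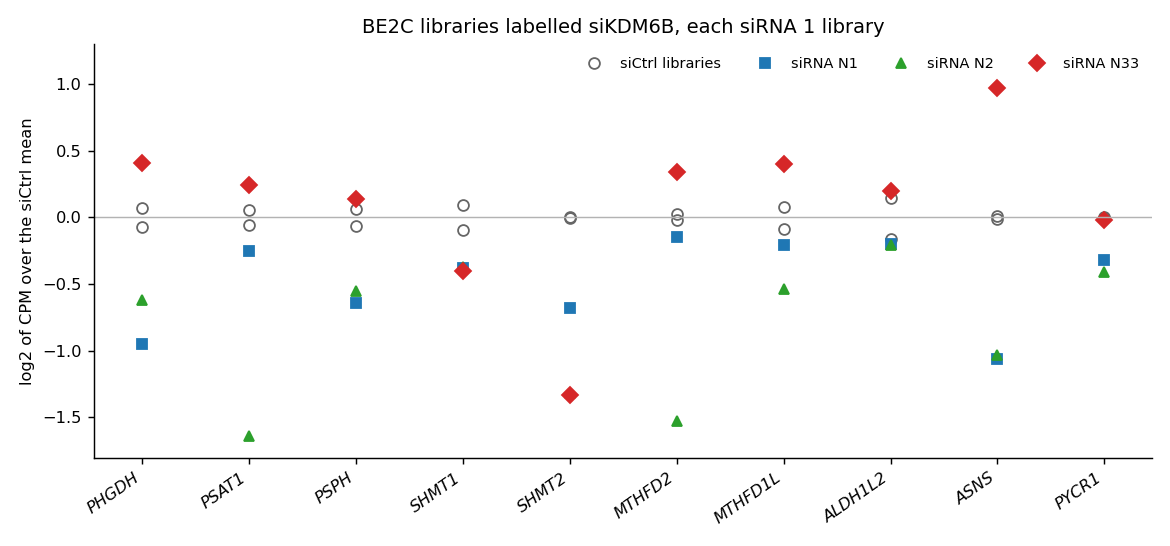
Each gene in each siRNA library of BE2C cells, as log2 of CPM over the mean of the 2 siCtrl libraries (open circles); filled symbols are N1, N2 and N33, 1 library each. ASNS is near -1 with N1 and N2 and near 1 with N33, while SHMT2 is below 0 with all 3. Some symbols coincide, N2 with N33 for SHMT2 and all 3 for SHMT1.

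In untreated cells the 10 genes differed between the 4 palbociclib lines. All 10 passed the edgeR test across the 4 lines, as did 91.2% of all genes. SHMT2 ranged from 637 and 711 CPM in CHLA15 through 593 and 522 CPM in CHLA20 and 252 and 246 CPM in NB1643 to 138 and 143 CPM in NB1691, and ASNS from 662 and 523 CPM in CHLA20 to 96.4 and 96 CPM in NB1691. The largest difference between 2 lines was 2.62 on the log2 scale for ASNS, 2.26 for SHMT2 and 1.95 for PHGDH.

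PHGDH declined in order from CHLA15 (482 and 561 CPM) and CHLA20 (509 and 449 CPM), whose values overlapped (edgeR adjusted p = 0.26), to NB1643 (311 and 308 CPM) and NB1691 (133 and 138 CPM). For ASNS, CHLA20 and CHLA15 did not pass the test against each other (edgeR adjusted p = 0.18), and NB1643 followed at 134 and 144 CPM. PSAT1 and MTHFD2 were highest in CHLA20, at 270 and 260 CPM and at 507 and 471 CPM, and lowest in NB1691, at 119 and 124 CPM and at 169 CPM in both libraries. In neither gene did CHLA15 and NB1643 pass the test against each other (edgeR adjusted p = 0.057 for PSAT1 and 0.69 for MTHFD2). PSPH was higher in CHLA20 (62 and 64.6 CPM) than in CHLA15 (46.3 and 51.3 CPM, edgeR adjusted p = 0.0011), and NB1643 and NB1691 were lower and did not pass the test against each other.

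SHMT1, MTHFD1L and PYCR1 followed another order. SHMT1 was at 44 and 50.4 CPM in CHLA20, at 38.5 and 39.6 CPM in CHLA15, at 35.4 and 35.9 CPM in NB1691 and at 16.9 and 16 CPM in NB1643, and CHLA15 and NB1691 did not pass the test against each other (edgeR adjusted p = 0.077). MTHFD1L was likewise lowest in NB1643, at 47.9 and 43.4 CPM, against 73.2 to 91 CPM in the others. PYCR1 was highest in NB1643, at 304 and 280 CPM, and lowest in CHLA15, at 207 and 235 CPM. The differences between CHLA20 and CHLA15 were small and moved with single libraries. With 1 library left out, their log2 value ran from 0.18 to 0.37 for SHMT1 and from 0.12 to 0.30 for PYCR1. For PYCR1, NB1691 and CHLA20 overlapped (edgeR adjusted p = 0.71). ALDH1L2 was at 68.1 and 86.7 CPM in CHLA15, at 78.5 and 49.7 CPM in CHLA20 and at 45.5 to 47 CPM in NB1643 and NB1691. The CHLA lines did not pass the test against each other for ALDH1L2 (log2 -0.27, edgeR adjusted p = 0.22), while without the first CHLA20 control the difference was -0.63 and passed, and without the second it was 0.026.

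Pairwise edgeR tests called 12.4% of all genes between CHLA20 and CHLA15, 64.6% between NB1643 and CHLA15, 78% between NB1691 and CHLA15, 64.5% between NB1643 and CHLA20, 77.5% between NB1691 and CHLA20 and 80.7% between NB1691 and NB1643. Per length, SHMT2 led in CHLA15 at 313 CPM per kilobase, PHGDH in NB1643 at 166, and PYCR1 in NB1691 at 114. In CHLA20 the means of SHMT2 at 258, PHGDH at 257 and ASNS at 248 lay close together. In the first CHLA20 control ASNS at 278 lay above SHMT2 at 275. BE2C cells were counted against another list of genes and fitted apart, so their levels are not set against those of these lines.

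After palbociclib all 10 genes fell in CHLA15 and all 10 in CHLA20, 7 fell in NB1643, and 3 fell while 2 rose in NB1691. The shares of all 22133 genes tested that fell were 15.6% in CHLA15, 15.9% in CHLA20, 19.7% in NB1643 and 15.5% in NB1691. The shares that rose were 14.2%, 13.7%, 20.3% and 17.4%. The median log2 fold change of the 10 genes was -1.04 in CHLA15, -1.40 in CHLA20, -0.54 in NB1643 and 0.061 in NB1691, against medians over all genes of -0.0021, 0, 0 and 0.019. The CHLA lines received 300 nM and the NB lines 3 μM, so line and dose cannot be told apart in these differences. MYCN RNA in the controls was 2.29 to 2.3 CPM in CHLA15, 2.9 to 3.41 CPM in CHLA20, 3074 to 3202 CPM in NB1643 and 86.1 to 86.9 CPM in NB1691. The part of MYCN in these differences was not tested. All 10 genes fell in CHLA20 without either of its control libraries, and 7 fell in NB1643 without either of its own.

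Markers of cell types moved with palbociclib too. Of the 10 adrenergic markers, 3 rose and 3 fell in CHLA15, 3 rose and 0 fell in CHLA20, 8 rose and 0 fell in NB1643 and 6 rose and 0 fell in NB1691, among them DBH with a log2 fold change of 2.07 and CHGA with one of 1.39 in NB1643. Of 8 markers of other cell types tested, 1 rose and 2 fell in CHLA15, 2 rose and 2 fell in CHLA20, 3 rose and 0 fell in NB1643 and 4 rose and 0 fell in NB1691. COL1A1 had log2 fold changes of -1.55 in CHLA15, -1.25 in CHLA20 and 0.40 in NB1691, KRT18, a keratin, one of 0.91 in NB1691, and VWF, an endothelial gene, one of 2.15 in CHLA20. Their part in the values of the 10 genes was not tested.

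ASNS had the largest fall in CHLA20 and one as large as that of PHGDH in CHLA15. It went from 451 and 578 CPM to 140 and 143 CPM in CHLA15, a log2 fold change of -1.87 (SE 0.099, edgeR adjusted p = 2e-10). In CHLA20 it went from 662 and 523 CPM to 137 and 140 CPM, a log2 fold change of -2.10 (SE 0.099, edgeR adjusted p = 3.5e-11). In NB1643 the fall was from 134 and 144 CPM to 111 and 112 CPM (log2 -0.33, SE 0.097, edgeR adjusted p = 0.01), a call lost without the first treated library. In NB1691 it was at 96.4 and 96 CPM without palbociclib and at 103 and 100 CPM with it (log2 0.088, SE 0.098, edgeR adjusted p = 0.54).

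PHGDH fell in all 4 lines, from 482 and 561 to 146 and 142 CPM in CHLA15, from 509 and 449 to 148 and 150 CPM in CHLA20, from 311 and 308 to 187 and 179 CPM in NB1643 and from 133 and 138 to 106 and 102 CPM in NB1691. The log2 fold changes were -1.86, -1.69, -0.76 and -0.37, with edgeR adjusted p from 4.6e-12 to 0.0003. SHMT1 and MTHFD1L also fell in all 4 lines. SHMT1 fell most in NB1643, from 16.9 and 16 to 8.28 and 7.89 CPM (log2 -1.03, SE 0.078, edgeR adjusted p = 4.8e-09). MTHFD1L had log2 fold changes of -0.91 in CHLA15, -1.20 in CHLA20, -0.69 in NB1643 and -0.31 in NB1691.

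PSAT1 changed direction between lines. It fell from 178 and 181 to 82.9 and 77.7 CPM in CHLA15, from 270 and 260 to 73.3 and 72.5 CPM in CHLA20 and from 152 and 171 to 117 and 119 CPM in NB1643. In NB1691 it rose from 119 and 124 to 150 and 145 CPM (log2 0.29, SE 0.058, edgeR adjusted p = 0.00077). ALDH1L2 did likewise, falling in CHLA15 from 68.1 and 86.7 to 26.9 and 26.5 CPM and in CHLA20 from 78.5 and 49.7 to 19 and 19.2 CPM, and rising in NB1691 from 47 and 46.9 to 64.9 and 68.6 CPM (log2 0.52, SE 0.14, edgeR adjusted p = 0.0063). In NB1643 ALDH1L2 had overlapping groups (log2 0.031, edgeR adjusted p = 0.93).

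SHMT2 and MTHFD2 fell in 3 lines. SHMT2 went from 637 and 711 to 209 and 207 CPM in CHLA15, from 593 and 522 to 203 and 208 CPM in CHLA20 and from 252 and 246 to 135 and 130 CPM in NB1643, log2 fold changes of -1.70, -1.44 and -0.92. In NB1691 it was at 138 and 143 CPM without palbociclib and at 156 and 150 CPM with it (log2 0.13, SE 0.061, edgeR adjusted p = 0.12), a difference that passed in a fit of the NB1691 libraries alone (log2 0.11, edgeR adjusted p = 0.0054) and under upper-quartile scaling (edgeR adjusted p = 0.041). MTHFD2 had log2 fold changes of -0.77, -1.22 and -0.62 in CHLA15, CHLA20 and NB1643. In NB1691 it had one of 0.034 (SE 0.06, edgeR adjusted p = 0.72). In the treated libraries MTHFD2 lay between 170 and 226 CPM in all 4 lines, whereas the controls lay between 169 and 507 CPM.

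PSPH and PYCR1 fell in the CHLA lines. PSPH had log2 fold changes of -0.78 in CHLA15 and -1.36 in CHLA20, and PYCR1 of -0.64 and -0.75. In NB1643 and NB1691 neither passed the test, with log2 values from 0.0097 to 0.13 and SE from 0.062 to 0.07, although PSPH passed in NB1691 in the fit of that line alone (edgeR adjusted p = 0.025). The summed level of the 10 genes was 1032 to 1189 CPM in the 8 treated libraries, against 2518 to 3063 CPM in the CHLA controls, 1622 to 1645 CPM in those of NB1643 and 1104 to 1122 CPM in those of NB1691.

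**Figure D3:**
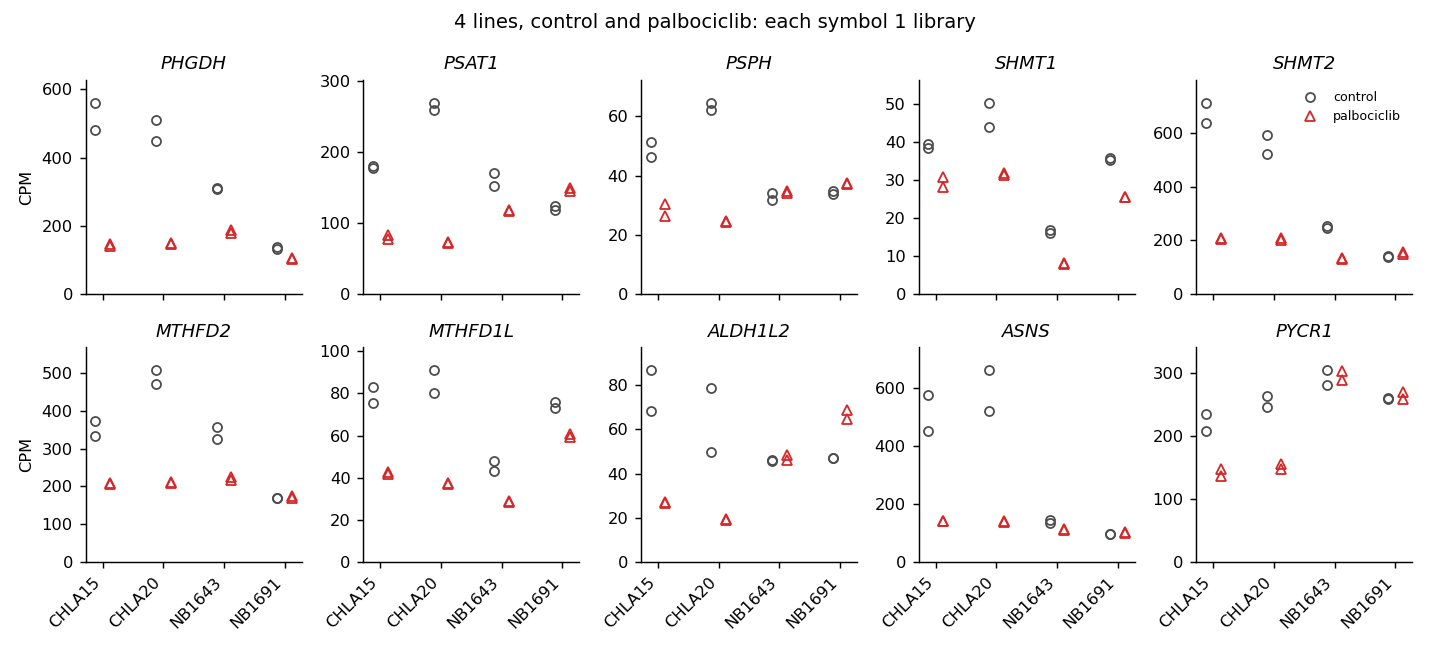
Levels in CPM (linear axis from 0) of the 10 genes in 4 lines, with 2 control libraries (circles) and 2 palbociclib libraries (triangles) each. The CHLA controls stand far above their treated libraries for PHGDH, SHMT2 and ASNS, and the treated libraries of the 4 lines lie close together for MTHFD2, at 170 to 226 CPM.

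The response differed between lines in all 10 genes by the line by treatment test, which 38% of all genes passed. The largest difference in log2 fold change between 2 lines was 2.27 for ALDH1L2 (edgeR adjusted p = 3.3e-08), 2.19 for ASNS (edgeR adjusted p = 3.6e-10) and 2.15 for PSAT1 (edgeR adjusted p = 2e-12). It was smallest for SHMT1, at 0.62 (edgeR adjusted p = 0.00045).

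**Figure D4:**
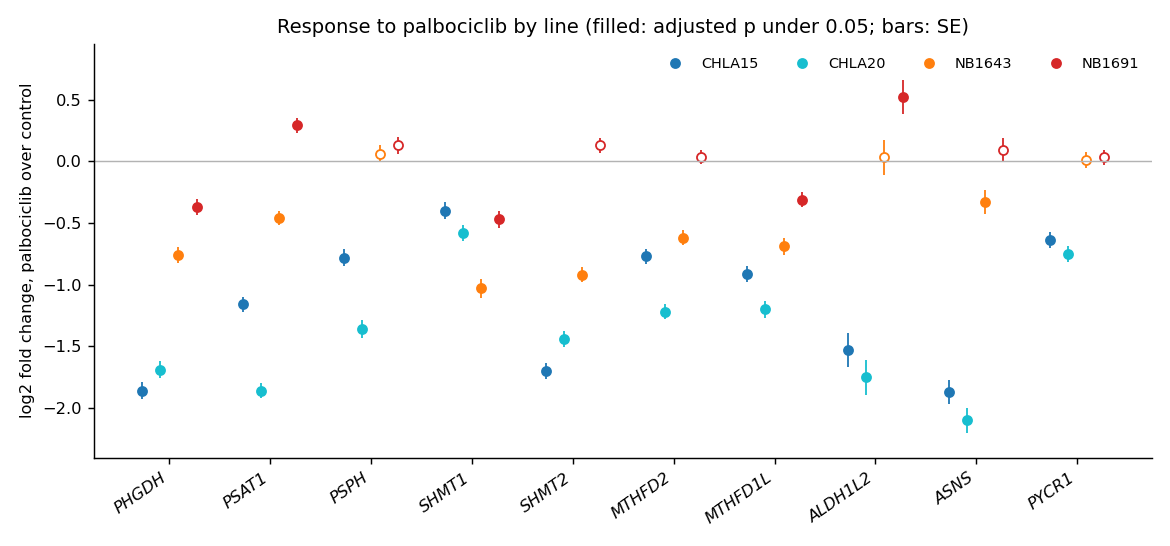
Log2 fold change of palbociclib over control for each gene in 4 lines, with its standard error; filled points passed an edgeR adjusted p of 0.05. NB1691 lies highest for 9 of the 10 genes, the exception being SHMT1, where CHLA15 at -0.40 lies above NB1691 at -0.47.

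Related genes gave the following counts. Of the 16 genes of the ATF4 list, 10 fell in CHLA15 and 10 in CHLA20, with 1 and 2 rising, while in NB1643 2 fell and 4 rose and in NB1691 0 fell and 8 rose. CHAC1 had a log2 fold change of -3.06 in CHLA15, -3.53 in CHLA20 and 0.82 in NB1691. ATF4 went from 464 and 486 to 318 and 300 CPM in CHLA15 and from 556 and 586 to 298 and 301 CPM in CHLA20, log2 fold changes of -0.62 and -0.93. In NB1643 ATF4 went from 696 and 744 to 611 and 594 CPM, or -0.26 on the log2 scale (edgeR adjusted p = 0.00047), and in NB1691 its value was -0.0014 (edgeR adjusted p = 1). The list was chosen with earlier results of these data known and is no independent evidence of direction.

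Among 18 other folate genes tested, 5 fell and 2 rose in CHLA15, 4 fell and 2 rose in CHLA20, 8 fell and 3 rose in NB1643 and 6 fell and 1 rose in NB1691. TYMS, thymidylate synthase, fell in all 4, with log2 fold changes of -0.49 in CHLA15, -0.74 in CHLA20, -3.50 in NB1643 and -3.15 in NB1691. Of 8 purine synthesis genes 3 fell in CHLA15, 5 in CHLA20, 6 in NB1643 and 6 in NB1691, and 1 rose in each line. The gene that rose was ADSL, adenylosuccinate lyase, in CHLA15, CHLA20 and NB1643 (log2 0.43, 0.36 and 0.44), and PRPS1, which makes phosphoribosyl pyrophosphate, in NB1691 (log2 1.03, edgeR adjusted p = 2.2e-10). ASS1, which joins aspartate to citrulline, had log2 fold changes of -2.87 in CHLA15, -1.46 in CHLA20 and 0.33 in NB1691, all past the test.

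Across all 27 libraries, with log2 CPM centred within each line and experiment, each gene was set against the mean of the other 9. Pearson's r was 0.94 for PSAT1, 0.936 for PHGDH, 0.921 for ASNS, 0.91 for PSPH, 0.891 for ALDH1L2, 0.879 for MTHFD2, 0.861 for SHMT2, 0.775 for MTHFD1L, 0.765 for PYCR1 and 0.541 for SHMT1. The closest pair was PSAT1 and MTHFD2 at 0.966 and the most distant was SHMT1 and ALDH1L2 at 0.32. Libraries of 1 group share their treatment, so these values describe the treatments as much as the genes and carry no p. Among 12273 other genes, the 5 with the highest r to the mean of the 10 were GARS at 0.959, NEDD4 at 0.94, XPOT at 0.934, CARS at 0.927 and ATF4 at 0.922. By the same measure r was 0.875 for CHAC1, 0.698 for TRIB3, 0.548 for DDIT3 and -0.0707 for MYCN. GARS and CARS are aminoacyl-tRNA synthetases, XPOT exports tRNA from the nucleus and NEDD4 is a ubiquitin ligase.

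On GRCh37, to which the reads were aligned, the genes lie apart from one another: PHGDH at chr1:120191034-120286841 and PSAT1 at chr9:80912041-80945009 on the plus strand, ASNS at chr7:97480989-97501854 on the minus strand and SHMT2 at chr12:57623356-57628718 on the plus strand. Counts were given per gene, so exons and isoforms were not told apart. SHMT1, SHMT2, MTHFD2, MTHFD1L, ALDH1L2, ASNS and PYCR1 overlap other annotated genes, and whether strand was used in the counting is not given in the sources used here, so reads of a gene and an overlapping one cannot be told apart. ASNS has a listed near-copy, ASNSP1, at 1.82 and 2 CPM at 0 h of GSK-J4, 10.6 CPM in both libraries at 24 h and 13 CPM with N33, and PSPH has PSPHP1, at 3.95 to 4.62 CPM over the GSK-J4 libraries. Reads of these pairs may have been split, and the values of ASNS and PSPH are uncertain to that extent.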

How the data were processed

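RNA-seq read counts from 38 deposited files were used. The authors aligned reads to GRCh37 and deposited raw counts per gene symbol, and the submitters' notes name CASAVA, STAR 2.5.3a and HTSeq. The labels describe cultured lines, but the label on extraction names xenograft tissue, which was not resolved. Files of 1 BE2C library were summed, giving 27 libraries, and summary lines of reads on no gene or on several genes were left out. Reads on no gene made up 5.1% to 16.8% of a library, and ambiguous reads 2.14% to 3.46%.

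Counts were tested in 3 fits (GSK-J4, siRNA and palbociclib) with edgeR 4.0.16 in R 4.3.3, using TMM, filterByExpr and the quasi-likelihood test, with Benjamini-Hochberg adjustment over all genes tested and a threshold of 0.05. Scripts were tested on simulated counts. Alternatives were DESeq2 1.42.0, limma-voom (limma 3.58.1), RLE and upper-quartile scaling, no filter beyond 1 count, the replicate number as a block, each file as a sample, the compared groups alone, each library left out, and a minimum absolute log2 fold change of 0.5. Same-numbered libraries had correlations of deviations from 0.00373 to 0.0183 for GSK-J4 and from -0.0632 to 0.0482 for palbociclib, so numbers were not taken to pair them.

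The 10 genes and all lists were chosen with earlier results of these data known. All 10 were named throughout. Of each other list, counts were given, and up to 3 genes with the highest and 3 with the lowest log2 fold change among those called, with a mean of at least 1 CPM, could be named; the values of CHAC1, DDIT3 and TRIB3 with the siRNAs were chosen after they were seen. The values of 1 list gene are not reported here. Likeness was Pearson's r of log2(CPM + 0.01), centred within line and experiment. The 5 closest genes were named, beside CHAC1, TRIB3, DDIT3 and MYCN. Levels and floors carry counting error only. Promoters came from RefSeq (GRCh38.p14), and gene positions and transcript lengths from the GRCh37 annotation.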

Additional observations from a re-analysis of the deposited data

Results flagged for a closer look

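All 10 genes differed in their response to palbociclib between the 4 lines by the line by treatment test. The largest difference in log2 fold change between 2 lines was 1.49 for PHGDH, 2.15 for PSAT1, 1.5 for PSPH, 0.62 for SHMT1, 1.83 for SHMT2, 1.25 for MTHFD2, 0.90 for MTHFD1L, 2.27 for ALDH1L2, 2.19 for ASNS and 0.78 for PYCR1, with edgeR adjusted p from 2e-12 for PSAT1 to 0.00045 for SHMT1. Of all genes tested, 38% passed the same test. The lines also differed in dose, so line and dose cannot be told apart.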

How the results depend on the processing

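Of 990 values of the 10 genes in the 8 treatment comparisons under the alternatives, 945 kept their direction and side of the threshold, 22 lost the call, 6 gained it and 17 reversed. Of 1030 values for untreated lines and the line by treatment test, the counts were 968, 32, 16 and 14. The cause of these changes was not tested.

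With a minimum absolute log2 fold change of 0.5, all genes called were 3855 instead of 9802 at 24 h of GSK-J4, 7487 instead of 12678 at 48 h, 3111 instead of 9551 from 24 to 48 h, 2600 instead of 6598 in CHLA15, 2659 instead of 6544 in CHLA20, 4292 instead of 8841 in NB1643 and 3033 instead of 7269 in NB1691. Of the 10 genes, 1 was then lower at 48 h and 3 from 24 to 48 h, and in NB1691 1 was higher and 0 were lower. In NB1691 alone 4 of the 10 were higher. For siKDM6B all genes called were 157 with DESeq2, 84 with no filter beyond 1 count and 2354 with each file as a sample, where 2 of the 10 were lower.

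Under upper-quartile scaling PYCR1 at 24 h was 0.02, ASNS with siKDM6B 0.013 (0.0023 with each file as a sample), MTHFD2 between untreated NB1643 and CHLA15 0.04 (0.0092 in those groups alone) and PYCR1 between NB1691 and CHLA20 -0.087 (-0.036 alone). Between NB1691 and NB1643, PSPH was -0.15 (edgeR adjusted p = 0.049) and ALDH1L2 -0.18.

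Leaving out 1 library, 7 to 9 of the 10 genes were higher at 24 h, 2 to 3 were lower at 48 h, 6 to 7 fell in NB1643, and all 10 fell in CHLA15 and CHLA20. SHMT1 at 24 h ran from -0.051 to 0.19. With siKDM6B, PHGDH ran from -0.75 without N33 to 0.02 without N1, PSAT1 from -0.75 without N33 to 0.058 without N2, MTHFD2 from -0.64 without N33 to 0.16 without N2, MTHFD1L from -0.33 without N33 to 0.17 without N2, ALDH1L2 from -0.18 to 0.12 without the first and second siCtrl library and ASNS from -1.02 without N33 to 0.33 without N1. PYCR1 in NB1643 ran from -0.062 to 0.065. For untreated CHLA20 against CHLA15, SHMT1 ran from 0.18 to 0.37, SHMT2 from -0.36 to -0.18 and PYCR1 from 0.12 to 0.30. For untreated NB1691 against CHLA15, PYCR1 ran from 0.081 to 0.26. Between untreated lines, ALDH1L2 ran from -0.63 to 0.026 (CHLA20 against CHLA15), MTHFD2 from -0.081 to 0.076 (NB1643 against CHLA15), PYCR1 from -0.093 to 0.035 (NB1691 against CHLA20), and PSPH from -0.099 to 0.071 and ALDH1L2 from -0.098 to 0.025 (NB1691 against NB1643).

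With the replicate block, 9939 genes were called at 24 h and 12727 at 48 h of GSK-J4, against 9802 and 12678 without it, and it changed no call of the 10 genes. No paired analysis was possible for the siRNA libraries because the siRNAs carry no shared replicate numbers. A group left with 1 library was assumed to vary like the others. With 2 libraries per group, small differences such as that of MTHFD1L at 24 h rest on single libraries.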
